A study of Mus musculus with 16 samples.

Results

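Cytosolic ribosomal proteins and the factors that work with the ribosome were followed in eosinophils of the mouse duodenum, sorted from the lamina propria in the morning and in the evening. Members were taken by gene symbol from the authors' deposited tables: ribosomal proteins of the small (Rps) and large (Rpl, Rplp) subunit, all genes with Eif and Eef symbols, and Tpt1. Genes with Eif and Eef symbols are called translation factors here, though some encode kinases, methyltransferases, binding proteins or other products. Members came to 64 genes of the 1413 listed in either table, with 63 of 1340 in the CD11c-low table, 15 of 172 in the CD11c-high table and 14 in both. Mitochondrial ribosomal proteins were not members. The study had 16 libraries in 4 groups of 4, each made from 1000 sorted cells: CD11c-high eosinophils at zeitgeber time (ZT, counted in hours from lights on) 3, CD11c-high at ZT15, CD11c-low at ZT3 and CD11c-low at ZT15. CD11c is the integrin alpha chain encoded by Itgax. The labels give no genotype, strain, age or sex, and do not say whether libraries came from separate mice, so the errors given by the authors cover variation among these libraries, part or all of which may be technical.

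Both tables hold the authors' own comparison of ZT15 with ZT3 and no value of a single library, so sample values and overlap between groups could not be shown and depth per library is unknown. Each table lists genes with an s-value under 0.05 only. The s-value of a gene gives the share of wrong signs to expect when that gene and all better ones are taken. Fold changes are log2 ratios of the ZT15 to the ZT3 level. They are taken as shrunken towards 0 by the authors, and ± marks their error, taken as the posterior standard deviation (SD). "Fell" and "rose" are used for genes listed at that threshold, and the direction rests on the names of the tables. Of the markers of other cell types that were looked up, the CD11c-low table listed 2 of 11 for B and plasma cells (Bank1 and Ighm, both higher), 1 of 11 for T and NK cells (Gzma, higher), 1 of 7 for epithelium (Krt18, lower), 2 of 10 for macrophages and dendritic cells (Cd68 higher, Cd74 lower), 1 of 6 for mast cells (Hdc, higher) and 1 of 7 for neutrophils (Trem1, higher). Hdc, which encodes histidine decarboxylase, stood at 0.58 ± 0.20 (mean normalised count 934, s-value 2.18e-04) in the authors' deposited table. Gzma was far more extreme there, at 20.99 ± 3.33 (mean normalised count 30.4, s-value 3.83e-07). The CD11c-high table listed 2 of these markers, the plasma cell marker Xbp1 (0.41 ± 0.35) and Hdc (0.24 ± 0.19), both higher in the authors' deposited table. Of 15 eosinophil markers, 5 were listed in the CD11c-low table, 3 higher and 2 lower. Siglecf (0.23 ± 0.13, mean normalised count 1633) and Alox15 (0.26 ± 0.14, mean normalised count 4887) were higher, and Adgre1 (-0.29 ± 0.14) and Adgre4 (-0.21 ± 0.16) lower, in the authors' deposited table. None of the 15 was listed in the CD11c-high table. Immunoglobulin variable segments were listed 14 times in the CD11c-low (8 higher, 6 lower) and 8 times in the CD11c-high table (6 higher, 2 lower). Their log2 fold changes ran from -26.9 to 26.6 and from -19.8 to 24.8 in the authors' deposited tables. Levels of these markers per group were not analysed here, and their part in the results below was not tested.

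A ribosome is built from ribosomal RNA and about one copy each of its many ribosomal proteins, split between a small subunit, which reads the mRNA, and a large subunit, which joins amino acids. Most mRNAs of ribosomal proteins, of elongation factors and of Tpt1 belong to the TOP class: they begin with a C followed by a run of pyrimidines (C or T in DNA letters), through which mTORC1 signalling and the binding protein LARP1 control their translation and stability. Initiation factors bring the small subunit and the mRNA together, and elongation factors carry the ribosome along it.

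The sequence around the annotated start is shown for the member with the largest fall in each class among those with an entry (small subunit, large subunit, initiation, elongation, Tpt1) and for Rpl7a, a ribosomal protein gene that rose, because a pyrimidine run at the start marks the TOP class. Sequences are RefSeq promoter windows of build GRCm38.p6, matched by symbol for 47 of the 64 members. Each line gives 70 bases before and 30 bases from the annotated start, 5′ to 3′ on the gene's strand. Capitals mark the longest unbroken run of C and T, the first one where runs are equally long.
Rps12 (chr10:23787180-23787279, minus strand): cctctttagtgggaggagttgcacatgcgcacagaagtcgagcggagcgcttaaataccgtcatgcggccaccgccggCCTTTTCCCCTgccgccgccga
Rpl12 (chr2:32961642-32961741, plus strand): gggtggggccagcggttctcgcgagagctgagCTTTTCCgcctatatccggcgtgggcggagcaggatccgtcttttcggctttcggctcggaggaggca
Eif4a1 (chr11:69672394-69672493, minus strand): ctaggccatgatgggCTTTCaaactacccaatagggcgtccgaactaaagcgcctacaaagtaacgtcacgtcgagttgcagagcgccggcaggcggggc
Eef1b2 (chr1:63176761-63176860, plus strand): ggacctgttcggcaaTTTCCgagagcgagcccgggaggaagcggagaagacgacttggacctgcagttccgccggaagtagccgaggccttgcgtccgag
Tpt1 (chr14:75845186-75845285, plus strand): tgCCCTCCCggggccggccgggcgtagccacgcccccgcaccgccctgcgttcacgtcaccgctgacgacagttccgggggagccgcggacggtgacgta
Rpl7a (chr2:26910737-26910836, plus strand): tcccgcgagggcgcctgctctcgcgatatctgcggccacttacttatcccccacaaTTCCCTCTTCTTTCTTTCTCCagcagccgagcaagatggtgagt
The longest run was 11 bases in Rps12, 7 in Rpl12, 5 in Eif4a1, 5 in Eef1b2, 7 in Tpt1 and 21 in Rpl7a, so the gene that rose had the longest of the 6. Counting the annotated start as 1 and bases before it as negative, the marked run began at 9 in Rps12, -14 in Rpl7a, -38 in Rpl12, -55 in Eif4a1 and Eef1b2 and -68 in Tpt1. In Eif4a1, Eef1b2 and Tpt1 it was therefore short and well before the annotated start. Rpl12 held another run of 7 bases, not in capitals, just after its annotated start. The annotated start can lie away from the start used in these cells.

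In CD11c-low eosinophils, the mRNAs of both ribosomal subunits fell at ZT15. Of 48 listed ribosomal protein genes, 45 fell and 3 rose, against 640 lower among all 1340 listed genes (47.8%). The median log2 fold change of the 48 genes in the authors' deposited table was -0.35, a level of 0.785 of that at ZT3, with a median posterior SD of 0.18. Over all listed genes without immunoglobulin genes the median was 0.21. In libraries of sorted cells in bulk, fewer cells with an mRNA and less of it per cell cannot be told apart. Genes of one family are not independent, and the sources used here do not say how reads from near-identical copies and pseudogenes were counted, so single ribosomal protein values are uncertain in that respect.

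Small-subunit genes were led by Rps12 (ENSMUSG00000061983.8), whose protein sits on the small-subunit head. In the authors' deposited table Rps12 stood at -0.94 ± 0.23 (mean normalised count 1111, s-value 2.99e-06), a level of 0.522 of that at ZT3. Rps21 followed with -0.72 ± 0.20 in the authors' deposited table (s-value 1.38e-05), and Rps24 with -0.59 ± 0.19 (s-value 1.24e-04). These 3 were the small-subunit genes with the largest falls and the smallest s-values. Rps15, whose protein is needed for export of the small subunit from the nucleus, was at -0.50 ± 0.19 in the authors' deposited table. The 17 small-subunit genes that fell included Rps27a, which encodes ubiquitin fused to a ribosomal protein, at -0.38 ± 0.16, and ended with Rps9 at -0.22 ± 0.14, in the authors' deposited table. The median over the 18 genes was -0.37 in the authors' deposited table.

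Large-subunit genes moved the same way, with 28 of 30 lower and a median of -0.33 in the authors' deposited table. The largest fall was that of Rpl12, a protein at the base of the stalk, at -0.71 ± 0.21 in the authors' deposited table (s-value 3.33e-05). Rpl32 was at -0.65 ± 0.18, Rpl30 at -0.63 ± 0.25 and Rpl22 at -0.61 ± 0.21 in the authors' deposited table. The stalk, which recruits the GTPases of elongation, is made of Rplp0 and the acidic proteins encoded by Rplp1 and Rplp2. Rplp1 (-0.60 ± 0.17) and Rplp2 (-0.59 ± 0.21) had nearly the same value in the authors' deposited table, and Rplp0 was not listed. Rpl5 and Rpl11, which bind 5S ribosomal RNA and can bind the p53 regulator Mdm2, were at -0.24 ± 0.16 and -0.26 ± 0.18 in the authors' deposited table. Rpl3, which helps shape the peptidyl transferase centre, rose by 0.26 ± 0.18 (s-value 0.0268), and Rpl7a by 0.23 ± 0.17 (s-value 0.0327), in the authors' deposited table. The genes nearest the s-value threshold were Rpl10a (-0.21 ± 0.18, s-value 0.0461) and Rpl27 (-0.22 ± 0.18, s-value 0.0424) in the authors' deposited table.

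**Figure D1:**
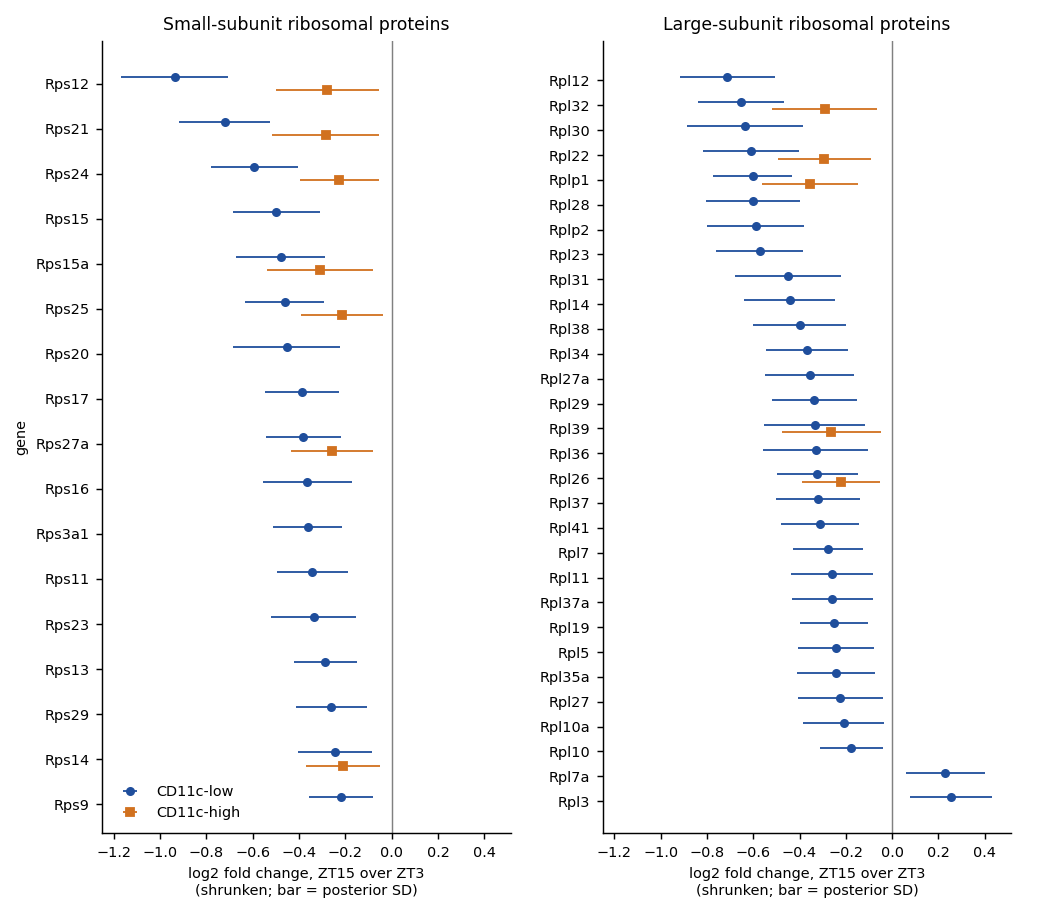
Log2 fold change at ZT15 over ZT3 (horizontal axis, authors' shrunken values) for ribosomal protein genes of the CD11c-low table (vertical axis), small subunit on the left and large subunit on the right. Circles are CD11c-low and squares CD11c-high cells, with bars of 1 posterior SD; 45 circles and all 12 squares lie left of 0, and Rpl3 and Rpl7a to its right.

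The 3 rises had weaker support than most of the falls. A false sign rate was recovered for each gene from successive s-values; it was under 0.05 for 34 of the 45 ribosomal protein genes that fell and for none of the 3 that rose, against 335 of the 640 lower genes and 706 of all 1340 in that table. Summed over genes, 1.28 wrong signs are expected among the 45 falls and 0.251 among the 3 rises. At an s-value under 0.01, 30 ribosomal protein genes were lower and none was higher, while 245 of all 518 genes at that threshold were lower. Single changes ranged from -0.94 to -0.18 among genes that fell, in the authors' deposited table.

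Listing itself was common in this family. GENCODE M21 holds 83 protein-coding genes whose symbols the ribosomal protein rule takes, and 48 of them (57.8%) were in the CD11c-low table, against 5.78% of all 21951 protein-coding genes. The 35 that were not listed included Rplp0, Rpsa, Rps6, Rpl4 and Rpl13a, and the paralogs Rpl3l, Rpl10l, Rpl22l1, Rpl39l and Rps27l. Values of genes outside the tables were not analysed here. The protein-coding genes compared include any not expressed in these cells, so the 2 shares are not matched for level. Listed ribosomal protein genes had a median mean normalised count of 873, against 332 over all listed genes. Per kilobase of transcript, listed ribosomal protein genes had a median level of 1447 mean normalised counts (2071 in the small and 992 in the large subunit), against 161 for listed genes that were no members. These levels use the median length of a gene's protein-coding transcripts in GENCODE M21, which need not be the isoform expressed.

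Translation factors did not share one direction. Of 14 listed in the CD11c-low table, 8 rose and 6 fell, against 52.2% higher among all listed genes. With kinases, binding proteins and methyltransferases left out, 7 rose and 6 fell. The 14 were 20.6% of the 68 annotated, against 5.78% of all protein-coding genes listed, whether expressed or not, and 54 were not listed. The 6 that fell were Eif1, Eif4a1, Eif4a2, Eif4b, Eef1b2 and Eef2. Eif1 (ENSMUSG00000035530.14), which keeps the scanning ribosome from starting at a wrong codon, had the smallest s-value of all members at -0.70 ± 0.16 (s-value 9.33e-07, mean normalised count 3099) in the authors' deposited table. Eif4a1, the RNA helicase that unwinds mRNA leaders, was at -0.81 ± 0.23 in the authors' deposited table (s-value 3.53e-05), the largest fall of a translation factor. Its paralog Eif4a2 was at -0.20 ± 0.14 and the helicase cofactor Eif4b at -0.37 ± 0.24 in the authors' deposited table. Eef1b2, which recharges eEF1A with GTP, was at -0.43 ± 0.17, and Eef2, which drives translocation, at -0.27 ± 0.13, in the authors' deposited table. Eef1a1, the most used elongation factor, was not listed.

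Of the 8 factors that rose, Eif2b2, a subunit of the exchange factor that recycles eIF2, rose most, by 0.75 ± 0.34 in the authors' deposited table (s-value 0.00217, mean normalised count 80.8). Eef1e1, which despite its symbol is a scaffold protein of the multi-tRNA synthetase complex, rose by 0.58 ± 0.35 in the authors' deposited table. The cap-binding protein gene Eif4e rose by 0.39 ± 0.30, and Eif4ebp1, whose product binds and blocks eIF4E until mTORC1 phosphorylates it, by 0.34 ± 0.22, in the authors' deposited table. Eif3a, the core of the eIF3 complex, rose by 0.32 ± 0.18 and Eif4g2, an eIF4G-like protein that does not bind eIF4E, by 0.31 ± 0.16 in the authors' deposited table. Eif4a3, a helicase of the exon junction complex rather than of initiation, was at 0.28 ± 0.17 and the eEF1 complex subunit Eef1g at 0.23 ± 0.19 in the authors' deposited table. Only Eif2b2 and Eif4g2 of the 8 had an s-value under 0.01, against 4 of the 6 that fell.

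Tpt1 (ENSMUSG00000060126.15) encodes the translationally controlled tumour protein, a small abundant protein whose mRNA is a TOP mRNA. In CD11c-low cells it was at -0.84 ± 0.21 in the authors' deposited table (mean normalised count 3126, s-value 3.91e-06), a level of 0.56 of that at ZT3. Among members, only Rps12 fell further.

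**Figure D2:**
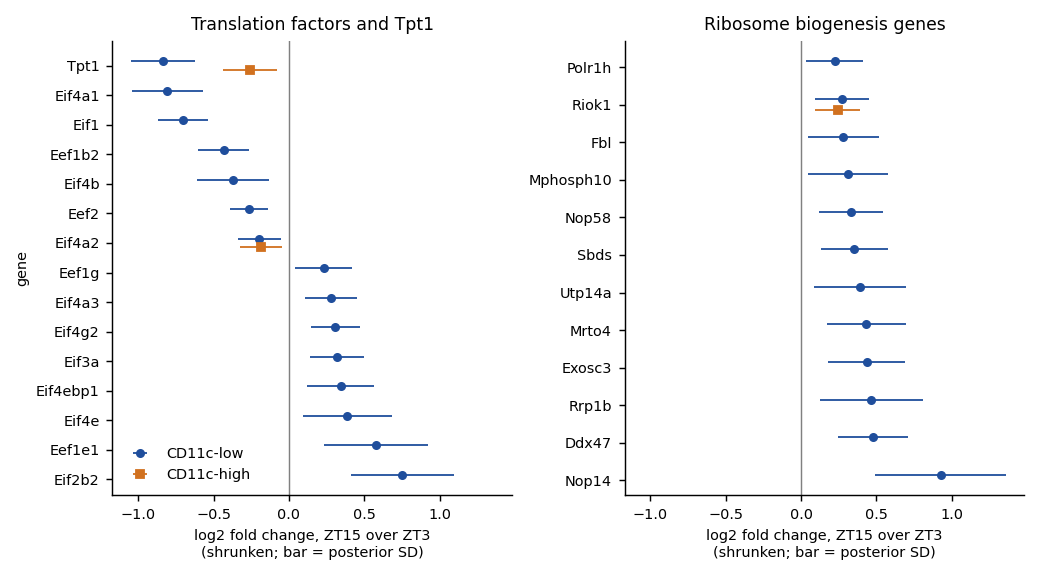
Log2 fold change at ZT15 over ZT3 (horizontal axis, authors' shrunken values) for translation factors and Tpt1 (left) and for ribosome biogenesis genes (right), 1 row per gene listed in the CD11c-low table. Circles are CD11c-low and squares CD11c-high cells, with bars of 1 posterior SD; translation factors lie on both sides of 0, and all 12 biogenesis genes lie to its right.

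The listed genes for building ribosomes were all higher at ZT15 in CD11c-low cells. Of a list of 95 symbols for ribosome biogenesis, 91 of them in the annotation, 12 were listed. That share is to be read against 5.78% of all protein-coding genes, whether expressed or not. All 12 rose, against the same 52.2% of all listed genes, with a median of 0.37 in the authors' deposited table. Nop14, a small-subunit processome protein, rose by 0.93 ± 0.43 (mean normalised count 73.6), and the RNA helicase gene Ddx47 by 0.48 ± 0.23, in the authors' deposited table. Exosc3, a subunit of the RNA exosome, rose by 0.44 ± 0.26 in the authors' deposited table. The others were Mrto4, Sbds, Nop58, Fbl, Mphosph10, Riok1, Rrp1b, Polr1h and Utp14a, at 0.22 to 0.47. The recovered false sign rate was under 0.05 for 5 of the 12, against 706 of all 1340 listed genes, and the s-value under 0.01 for 2 of the 12, against 518 of the 1340. These genes were thus less well supported than the table as a whole, and 0.749 wrong signs are expected among them. The difference in direction from ribosomal proteins was not tested.

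Neighbouring steps of protein synthesis were split, and their small counts are to be read against 52.2% higher and 47.8% lower among all genes of the CD11c-low table. How many of each list were in the table is to be read against 5.78% of all protein-coding genes, whether expressed or not. Fau, whose product carries a further small-subunit protein outside the symbol rule, was at -0.25 ± 0.15 in the authors' deposited table, while Rack1 was not listed. Naca, which binds nascent chains at the ribosome exit, fell by 0.30 ± 0.20, and the signal recognition particle genes Srp19 (0.35 ± 0.24) and Srp72 (0.26 ± 0.22) rose, in the authors' deposited table. Of 22 annotated aminoacyl-tRNA synthetases, 3 were in the table, and these, Eprs, Hars and Qars, rose by 0.25 to 0.31 in the authors' deposited table. Of 42 annotated genes of mTORC1 signalling and TOP mRNA binding, 7 were in the table, 3 higher and 4 lower, a split near that of all listed genes. Lamtor2, part of the lysosomal anchor of mTORC1, rose by 0.53 ± 0.18 and Rheb, the GTPase that activates mTORC1, by 0.48 ± 0.18 in the authors' deposited table. Cnbp, a nucleic acid-binding protein that binds TOP mRNAs, rose by 0.33 ± 0.17 in the authors' deposited table. The mTORC1 inhibitor gene Tsc1 fell by 0.42 ± 0.34, and Fnip1 and Larp4 by 0.30 ± 0.22 and 0.33 ± 0.27 in the authors' deposited table. Mtor, Rptor and Larp1 were not listed. Of 21 regulators at the cap and the poly(A) tail, 5 were in the table: Ddx6 (-0.59 ± 0.25), Mcts1 (-0.57 ± 0.28) and Fmr1 (-0.51 ± 0.31) fell and Dhx29 (0.52 ± 0.33) and Cyfip1 (0.26 ± 0.22) rose in the authors' deposited table. Of 17 annotated genes of the integrated stress response, 2 were in the table. Slc3a2, an amino acid transporter subunit induced in the integrated stress response, was at 0.47 ± 0.14 and Impact, an inhibitor of the kinase Gcn2, at -0.28 ± 0.21 in the authors' deposited table. Of 21 annotated genes of ribosome quality control and mRNA decay, 3 were in the table: Upf3b (0.40 ± 0.26) and Usp10 (0.41 ± 0.33) rose and Smg1 (-0.34 ± 0.24) fell in the authors' deposited table. Mitochondrial ribosomal proteins were split as well, with Mrpl45 higher (0.60 ± 0.27) and Mrpl16 (-0.57 ± 0.33) and Mrpl37 (-0.44 ± 0.33) lower in the authors' deposited table.

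CD11c-high eosinophils showed the same direction in fewer genes. All 12 listed ribosomal protein genes fell, 7 of the small and 5 of the large subunit, against 45.9% lower among the 172 listed genes. Their median was -0.27 and their range -0.36 to -0.21 in the authors' deposited table, with a median posterior SD of 0.20. Of the 83 annotated ribosomal protein genes, 14.5% were listed, against 0.697% of all protein-coding genes, again whether expressed or not. Rplp1 was the only one with an s-value under 0.01, at -0.36 ± 0.21 in the authors' deposited table (s-value 0.00637, mean normalised count 720). Tpt1 fell by 0.26 ± 0.18 and Eif4a2 by 0.19 ± 0.14 in the authors' deposited table. Eif4g1, the scaffold that joins eIF4E to eIF4A, rose by 0.33 ± 0.23 (s-value 0.015, mean normalised count 250.7) in the authors' deposited table and was the single member listed in CD11c-high cells only. No elongation factor was listed. Of the biogenesis list, Riok1 rose by 0.24 ± 0.15 and Nmd3, the adaptor for export of the large subunit, by 0.23 ± 0.20 in the authors' deposited table, and of the mitochondrial ribosomal proteins Mrpl20 fell by 0.25 ± 0.22.

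The 14 members in both tables fell in both, against 45.5% lower in both among the 99 genes that the tables share. They were Rps12, Rps14, Rps15a, Rps21, Rps24, Rps25, Rps27a, Rpl22, Rpl26, Rpl32, Rpl39, Rplp1, Tpt1 and Eif4a2. For all 14, the deposited value was further from 0 in CD11c-low cells. This was not counted over the other shared genes, so it is not shown to be particular to members. Rps12 was at -0.94 ± 0.23 in CD11c-low and -0.28 ± 0.22 in CD11c-high cells, and Tpt1 at -0.84 ± 0.21 and -0.26 ± 0.18, in the authors' deposited tables. Rps21 (-0.72 ± 0.20 and -0.29 ± 0.23), Rpl32 (-0.65 ± 0.18 and -0.29 ± 0.23), Rpl22 (-0.61 ± 0.21 and -0.29 ± 0.20) and Rps24 (-0.59 ± 0.19 and -0.23 ± 0.17) were further apart than most in the authors' deposited tables. These 4 are, with Rps12 and Tpt1, among the members with the largest falls in CD11c-low cells. In the same order of subsets, the authors' deposited tables gave Rplp1 -0.60 ± 0.17 and -0.36 ± 0.21, Rps15a -0.48 ± 0.19 and -0.31 ± 0.23, and Rps25 -0.46 ± 0.17 and -0.22 ± 0.18. Rps27a (-0.38 ± 0.16 and -0.26 ± 0.18), Rpl39 (-0.33 ± 0.22 and -0.26 ± 0.21) and Rpl26 (-0.32 ± 0.17 and -0.22 ± 0.17) lay closer together in the authors' deposited tables. Rps14 (-0.24 ± 0.16 and -0.21 ± 0.16) and Eif4a2 (-0.20 ± 0.14 and -0.19 ± 0.14) were nearly equal in CD11c-low and CD11c-high cells in the authors' deposited tables. The ratio of the CD11c-high to the CD11c-low change had a median of 0.535 over the 14 members and 0.696 over the 83 shared genes that were neither members nor immunoglobulin genes. Each table was shrunken by an amount that is not known, so these ratios do not measure a difference between the subsets.

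The difference itself was tested per gene from the deposited values, over all 99 shared genes, with 3 passing (3.03%). The test takes the shrunken values and their posterior SDs as plain estimates and errors. Its p-values and intervals are therefore approximate, and they cover only genes listed in both tables. None of the 14 members passed (two-sided normal test, Benjamini-Hochberg adjustment, smallest adjusted p = 0.395), and 2 had an unadjusted p under 0.05. For Rps12 the change in CD11c-low minus that in CD11c-high cells was -0.66 (95% interval -1.29 to -0.03, adjusted p = 0.395), and for Tpt1 it was -0.58 (-1.12 to -0.04, adjusted p = 0.395). For Rplp1 the interval ran from -0.77 to 0.28 and for Eif4a2 from -0.40 to 0.38, so differences of those sizes could not be told from 0. The sample titles use the same replicate numbers in every group and do not say whether equal numbers mean shared mice. If the subsets shared mice, their estimates may be correlated. With a correlation of 0.5 assumed, Tpt1 and Rps12 passed (adjusted p = 0.036 and 0.0365).

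**Figure D3:**
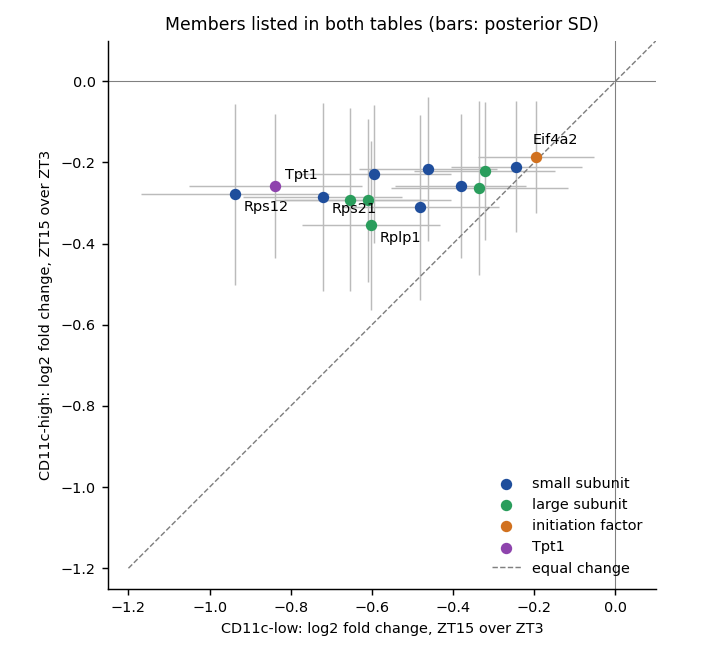
Log2 fold change at ZT15 over ZT3 in CD11c-low cells (horizontal axis) against that in CD11c-high cells (vertical axis) for the 14 members listed in both tables, coloured by role, with bars of 1 posterior SD on the authors' shrunken values. All 14 points lie below 0 on both axes and above the dashed line of equal change.

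Ribosomal protein genes have short annotated transcripts. Lengths here are medians over a gene's annotated protein-coding transcripts, which need not be the isoform expressed, so the length classes are approximate. Rps20, at 3706 bases, was placed in the longest class. Listed ribosomal protein genes had a median length of 643 bases in the CD11c-low table, against 2057 bases for listed genes that were no members. Their median GC content was 51.7% against 49.2%. Listed non-members with such a length under 1000 bases were more often higher than lower in CD11c-low cells. Of these 217 genes, 87 were lower (40.1%), against 37 of 40 ribosomal protein genes in the same class (92.5%). Whether the non-members expressed short isoforms is not known. Non-members of 1000 bases or more but under 2000 were lower in 123 of 362 cases (34.0%), and those of 2000 bases or more in 344 of 627 (54.9%). In CD11c-high cells 18 of 30 non-members under 1000 bases were lower (60.0%), against 14 of 34 (41.2%) and 28 of 74 (37.8%) in the longer classes, and 11 of the 12 ribosomal protein genes were of that short length. In CD11c-low cells, abundant transcripts of other genes were also more often higher than lower. Of 220 non-members at 1000 or more mean normalised counts, 81 were lower (36.8%), against 15 of 17 ribosomal protein genes (88.2%).

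**Figure D4:**
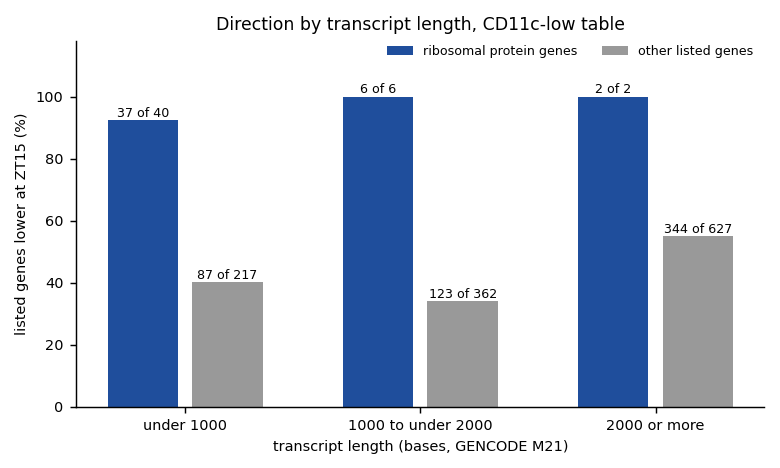
Share of listed genes lower at ZT15 in the CD11c-low table (vertical axis, percent, from 0) by transcript length in bases (horizontal axis), for ribosomal protein genes and for listed genes that are no members, with counts above the bars. Lengths are medians over a gene's annotated protein-coding transcripts, which need not be the isoform expressed. Ribosomal protein genes are at 92.5% or more in each length class, the upper 2 of which hold 6 and 2 of them, and the other genes between 34.0% and 54.9%.

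Around their annotated starts, listed ribosomal protein genes held long pyrimidine runs more often than the other groups of genes counted. Runs were sought in the same 100 bases as shown above, and a gene with several windows was counted by its longest run in any of them. Genes with more windows thus had more chances. A run of 10 or more C or T on the gene's strand was present in 20 of 34 listed ribosomal protein genes with a RefSeq window (58.8%). It was present in 1 of 11 translation factors (9.09%), in 21.9% of 965 listed non-members and in 21.1% of 16522 protein-coding genes. The median longest run was 10 bases in ribosomal protein genes and 7 in translation factors, in listed non-members and in protein-coding genes. Rpl27a and Rpl34 had runs of 20 bases, beginning at -4 and -17. Rpl11 had one of 23, which began at -68 and ended before the annotated start. Runs were counted anywhere in the 100 bases, so these are not counts of TOP starts. Motifs were searched on both strands of the whole 300-base window, counting a gene once if any of its windows held the motif, and none of the letters searched contains another. CCGGAAG, the core bound by ETS factors such as GABP, was in 14 of the 34 (41.2%), against 22.3% of listed non-members and 13.4% of protein-coding genes. GGGCGG, bound by SP1, was in 64.7%, against 69.1% and 51.0%. AAGATGGC, bound by YY1, was in 8.82%, against 5.08% and 3.64%. The E-box CACGTG, bound by CLOCK and BMAL1 and by MYC, was in 4 of the 34 (11.8%), against 12.8% and 9.18%, and in 4 of 11 translation factors (36.4%). These matches describe the letters in the windows.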

How the data were processed

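RNA was measured in sorted mouse eosinophils. Per the labels' protocols, libraries were made with the Nextera XT kit from amplified cDNA of polyadenylated RNA, 1000 cells each. The submitters' processing notes name STAR 2.7.10b, DESeq2 1.38.3 and build GRCm39, with no role for each. The sources used here do not say how reads were counted, on which annotation, or how fold changes were shrunken. For each gene the authors deposited, per the file headers, a mean normalised count (a signal averaged over libraries), a shrunken log2 fold change, its posterior standard deviation (treated as a score) and an s-value, which is not a p-value. No value of a single library was available to these analyses, so none was refitted.

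Members were found by symbol in Python 3.11.15 with pandas 2.3.3, NumPy 2.4.6 and SciPy 1.17.1, counted by role and direction, and set beside all genes of the same table. Differences between subsets were tested as normal deviates with an error that combines both SDs. Named genes are, per role, the 4 largest changes in each direction and the 3 smallest s-values, every ribosomal protein that rose, every member of the CD11c-high table, and up to 3 genes per direction of each further list. Some genes that this rule takes are given only within a range, and a few enter counts but are not reported here or drawn. Transcript lengths come from GENCODE M21 (GRCm38), matched by gene identifier without version. The members and lists were chosen with earlier results of these data known.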

Additional observations from a re-analysis of the deposited data

How the results depend on the processing

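Deposited values of single genes do not depend on the choices made here, but counts do. In CD11c-low cells the count of ribosomal protein genes that fell stayed between 30 and 46 under all 6 alternatives, and the median log2 fold change between -0.45 and -0.34. A minimum mean normalised count of 50 and leaving out paralogs could change neither. The smallest count of a listed ribosomal protein gene was 262, and no paralog was listed. Large-subunit genes that fell dropped to 16 at an s-value under 0.01. Results of CD11c-high cells rest on s-values near the threshold: 12 ribosomal protein genes fell at the deposited threshold, 1 at an s-value under 0.01, 4 at a recovered false sign rate under 0.05 and 2 at a log2 change of at least 0.3 in size. Members lower in both tables went from 14 to 1, 5 and 2 under the same settings. Translation factors that rose went from 8 to 2 at an s-value under 0.01 and 4 at a false sign rate under 0.05. Ribosome biogenesis genes that rose went from 12 to 2 and 5 under the same settings, which for this list were chosen after seeing the data. These settings keep fewer genes by construction. With a correlation of 0.5 between subsets, 2 members passed the test of the difference instead of 0. Leaving out single libraries could not be done. No paired analysis was possible because the tables hold no column that belongs to a library.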
